A study of Oryctolagus cuniculus with 8 samples.

Results

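Neurotransmitter receptors were picked on an Agilent rabbit array by the words of the probe descriptions. A probe was a member if its description named a receptor for glutamate, GABA, glycine, acetylcholine, serotonin, dopamine, adrenaline, adenosine, opioids or purines, and solute carriers and binding or interacting proteins were left out. This gave 175 of 43603 probes, which stand for 76 genes and array transcripts out of 23395, in 10 transmitter families. Forebrain RNA was compared between 4 dexamethasone and 4 saline samples of New Zealand rabbit pups. All pups were taken by Caesarean section after 29 days of a pregnancy whose term is 32 days, and were killed 14 days after birth. The dexamethasone pups had intramuscular injections of this synthetic glucocorticoid, 0.25 mg/kg 2 times daily over no more than 5 days, and the saline pups had the vehicle. The title of the series is about glucocorticoids after birth and myelination, and the design text calls the samples of a group biological replicates.

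Receptors for transmitters are of 2 kinds. Ionotropic receptors are ion channels built from several subunits, and the choice of subunits sets how long they open and which ions pass. The others act through G proteins and change second messengers inside the cell. Glutamate acting on AMPA, kainate and NMDA channels carries most fast excitation in the forebrain, and GABA acting on GABA A channels carries most fast inhibition. In rodents the make-up of both kinds of channel shifts in the weeks after birth.

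The array reads each gene through 60-base probes, and probes for related subunits can read related stretches. The AMPA subunits GRIA3 and GRIA2 are shown because their probes near the end of the coding sequence are alike and both read lower with dexamethasone. Capitals mark the bases that both probes share, 36 of 50 aligned. In the build oryCun2, the one named in the file headers, the GRIA3 probe lies at chrX:98025370-98025426 on the plus strand, and the GRIA2 probe at chr15:6575426-6575485 on the minus strand. Whether a probe also binds RNA of its relatives was not tested.
GRIA3: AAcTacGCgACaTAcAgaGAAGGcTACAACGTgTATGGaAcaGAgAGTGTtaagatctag
GRIA2: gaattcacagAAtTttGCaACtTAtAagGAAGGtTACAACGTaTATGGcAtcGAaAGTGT

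The samples were paired within groups on 4 arrays, samples 1 and 3 in Cy3 and samples 2 and 4 in Cy5. Slide 2, read in scan 2, held both dexamethasone arrays, and slide 1, read in scan 1, both saline arrays, so slide, scan and treatment cannot be told apart here. Spots well above background made up 47.7% to 64.3% of a dexamethasone sample and 39.1% to 59.7% of a saline sample, and among the receptor spots 38.5% to 49.2% of a dexamethasone sample and 36.9% to 49.2% of a saline sample. Each channel was background-corrected and normalised to a log2 intensity, and the fit covered 11250 genes. A gene was called at a Benjamini-Hochberg adjusted p under 0.05 in limma, with 4 samples against 4. Precision is limited by the number of arrays, with a median SE of 0.14 for a receptor's log2 difference. In whole tissue, fewer cells that hold a receptor and less of its RNA per cell cannot be told apart.

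Of the 76 receptor genes 40 were tested, 52.6%, where 48.1% of all genes on the array were. The glutamate family had 12 of 18 genes tested, or 10 of 16 without GRINA and POLR2M, which RefSeq does not name as receptors for glutamate. The GABA family had 11 of 15 tested, the serotonin family 3 of 12 and the adrenergic family 2 of 7, and differences between families were not tested. A further 21 genes were well above background in some sample but were not tested, and 15 were not well above background in any. Among these 15 were GRIN3A, an NMDA subunit, GRIK3, a kainate subunit, GLRA1, the adult glycine receptor subunit, and HTR1A, the main serotonin autoreceptor. GRIN2A, an NMDA subunit that gains ground as the rodent forebrain matures, cleared background in just 1 of 8 samples, too few for a test. GRIN3A, GRIK3, GLRA1, HTR1A and GRIN2A had 1 probe each. Whether a dim probe means little RNA in the tissue was not tested. GABBR2, which pairs with GABBR1 to make the GABA B receptor, was well above background in all 8 samples but lacked values in 3 of them, where its spot was an outlier. It read 11.86 and 11.73 in dexamethasone 3 and 4, against 11.76, 11.46 and 11.70 in saline 1, 2 and 4.

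**Figure D1:**
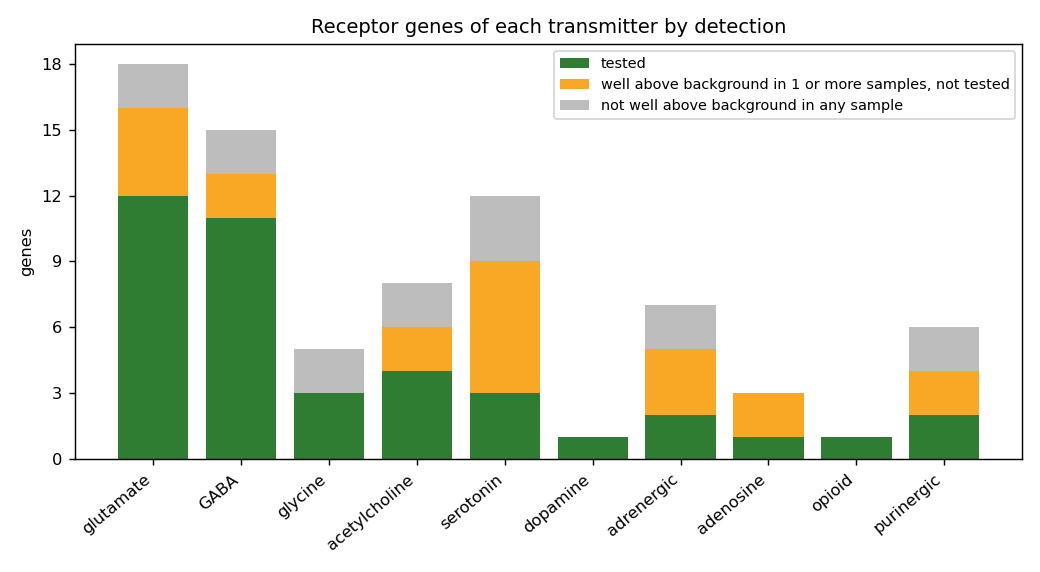
Number of receptor genes (y axis) of each transmitter family (x axis), split into genes tested, genes well above background in at least 1 sample but not tested, and genes not well above background in any sample. The glutamate family, GRINA and POLR2M included, and the GABA family hold 23 of the 40 tested genes.

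No receptor was called (0 of 40, limma, Benjamini-Hochberg), where 0.0622% of all genes tested were. With saline 1 and 2 left out 10 of 40 receptors were called, where 20.6% of all genes were, and with saline 3 and 4 left out 1 of 39, where 1.82% were. In each of these 2 fits the saline group was the 2 samples of 1 array, and the within-array correlation was negative. Such a correlation narrows the SE of a contrast between arrays, so these calls cannot be set against those from all samples. At an unadjusted p under 0.05 there were 8 receptors, 20% of those tested, against 13.7% of all genes. Of these, 5 were lower with dexamethasone, where 7.40% of all genes were, and 3 were higher, where 6.34% were. The groups were fully apart for 9 receptors, 22.5% of those tested, against 13.4% of all genes. With dexamethasone 6 of the 9 were lower, where 7.44% of all genes were, and 3 were higher, where 5.92% were. ADRA2A was among the 3 higher receptors on both counts, and its probe was well above background in only 2 of 4 saline samples. The median log2 difference of the 40 receptors was -0.02, against 0.02 over all genes. Below 0 lay 23 of 40, where 45.7% of all genes did, and 14 lay below 0 and 27 above with the deposited table, which moved the median of all genes to 0.14 and left 35.4% of them below 0. The 2 dyes gave a difference of the same sign for 65.0% of the receptors and for 66.5% of all genes.

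**Figure D2:**
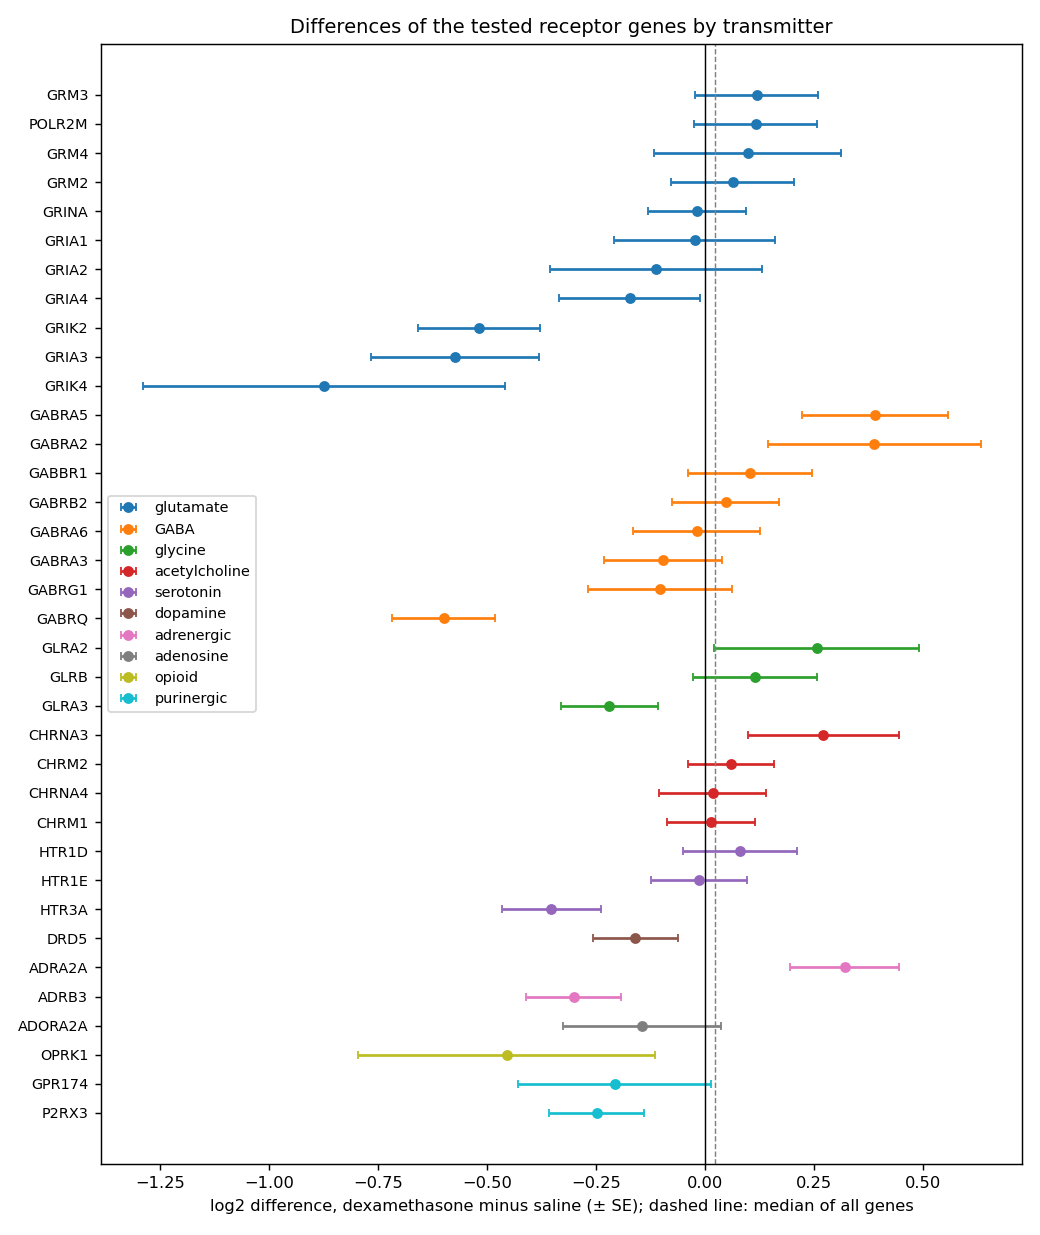
Log2 difference, dexamethasone minus saline, with its SE (x axis), for 36 of the 40 tested receptor genes, ordered by transmitter (y axis). The dashed line is the median of all genes tested, 0.02. The AMPA and kainate subunits all lie left of 0, and the plotted GABA A subunits lie on both sides, from -0.60 (GABRQ) to 0.39 (GABRA5).

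Among the ionotropic glutamate receptors, all 7 tested subunits lay below 0 with dexamethasone, with a median of -0.17, and 2 of the 7 had groups without overlap, where 45.7% of all genes lay below 0 and 13.4% had groups without overlap. The 3 tested metabotropic receptors, GRM2, GRM3 and GRM4, which damp transmitter release through G proteins, lay above 0, at 0.06 to 0.12. With the processed signals 2 of 3 lay above 0, with GRM2 at -0.02. It was also 2 of 3 with dexamethasone 1, dexamethasone 4, or dexamethasone 1 and 2 left out. None of the 10 was called, and the count of 7 below 0 was 6 of 7 with the processed signals and with 75th percentile scaling, and 5 of 7 with quantile normalisation over channels, with the deposited table and with dexamethasone 2 left out. With saline 2, saline 4 or saline 3 and 4 left out it was 5 of 6. GRIK2, 1 of the 2 subunits without overlap, and GRM3 were tested under the minimum of 3 values per group. That minimum was chosen after a first fit had left both untested. Over all receptors the 24 tested ionotropic genes had a median of -0.10, with 16 below 0, and the 13 tested G protein-coupled genes a median of 0.06, with 5 below 0.

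GRIK2 encodes a main subunit of kainate receptors. It read 10.21, 10.10, 10.04 and 10.18 in dexamethasone 1 to 4, against 10.36, 10.59, 10.65 and 10.99 in saline 1 to 4. Every saline sample was above every dexamethasone sample, and saline 4 was the highest. The log2 difference was -0.52 (SE 0.14, adjusted p = 0.283 in limma), which is 1.43-fold lower, and with the processed signals it was -0.22. The probe's ends map to positions 89972600 and 89984519 of chromosome 12, so it crosses a gap in the genomic sequence. Its second probe had a value in only 1 dexamethasone sample, where it read 10.71, against 10.60, 10.84, 10.94 and 11.34 with saline, and was not tested.

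GRIA3 encodes an AMPA receptor subunit and lies on the X chromosome. Its probe shown above read 9.84, 10.24, 10.08 and 9.79 in dexamethasone 1 to 4, against 10.82, 10.60 and 10.31 in saline 1 to 3. In saline 4 the spot was an outlier and gave no value, and the groups did not overlap. The log2 difference was -0.57 (SE 0.19, adjusted p = 0.331 in limma). A neighbouring probe with values in all 8 samples read 9.69, 9.91, 9.84 and 9.38 in dexamethasone 1 to 4, against 10.39, 10.17, 10.17 and 10.33 in saline 1 to 4. It also kept the groups apart, with a difference of -0.56 (SE 0.15), and the third GRIA3 probe differed by -0.34 (SE 0.19).

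GRIA2, the AMPA subunit that keeps calcium out of the channel, had a pair of probes whose differences were not alike. The brighter one, which stands for the gene, read 12.63, 11.93, 12.51 and 12.28 with dexamethasone, against 12.47, 12.15 and 12.66 in saline 2, 3 and 4. These values overlapped, and the difference was -0.11 (SE 0.24, adjusted p = 0.841 in limma), at 0.43 in Cy3 and -0.46 in Cy5. The probe shown above read 11.92, 11.22 and 11.41 in dexamethasone 2, 3 and 4, against 12.10, 11.93 and 12.41 in saline 2, 3 and 4, a difference of -0.60 (SE 0.18). GRIA4, a further AMPA subunit, differed by -0.17 (SE 0.16), and by -0.03 with dexamethasone 1 and 2 left out, and GRIA1, the subunit most tied to activity-dependent insertion at synapses, by -0.02 (SE 0.19).

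GRIK4, a kainate subunit that works only together with others, had the lowest difference of the receptors, and it rested on 1 array. It read 9.16, 8.88, 9.15 and 8.99 in dexamethasone 1 to 4, against 9.31, 8.94, 11.12 and 10.30 in saline 1 to 4. Saline 3 and 4, the 2 samples of the second saline array, were far above the rest, and saline 2 lay among the dexamethasone samples. The difference was -0.87 (SE 0.42, adjusted p = 0.373 in limma), and it was -0.08 with saline 3 and 4 left out and -1.67 with saline 1 and 2 left out.

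**Figure D3:**
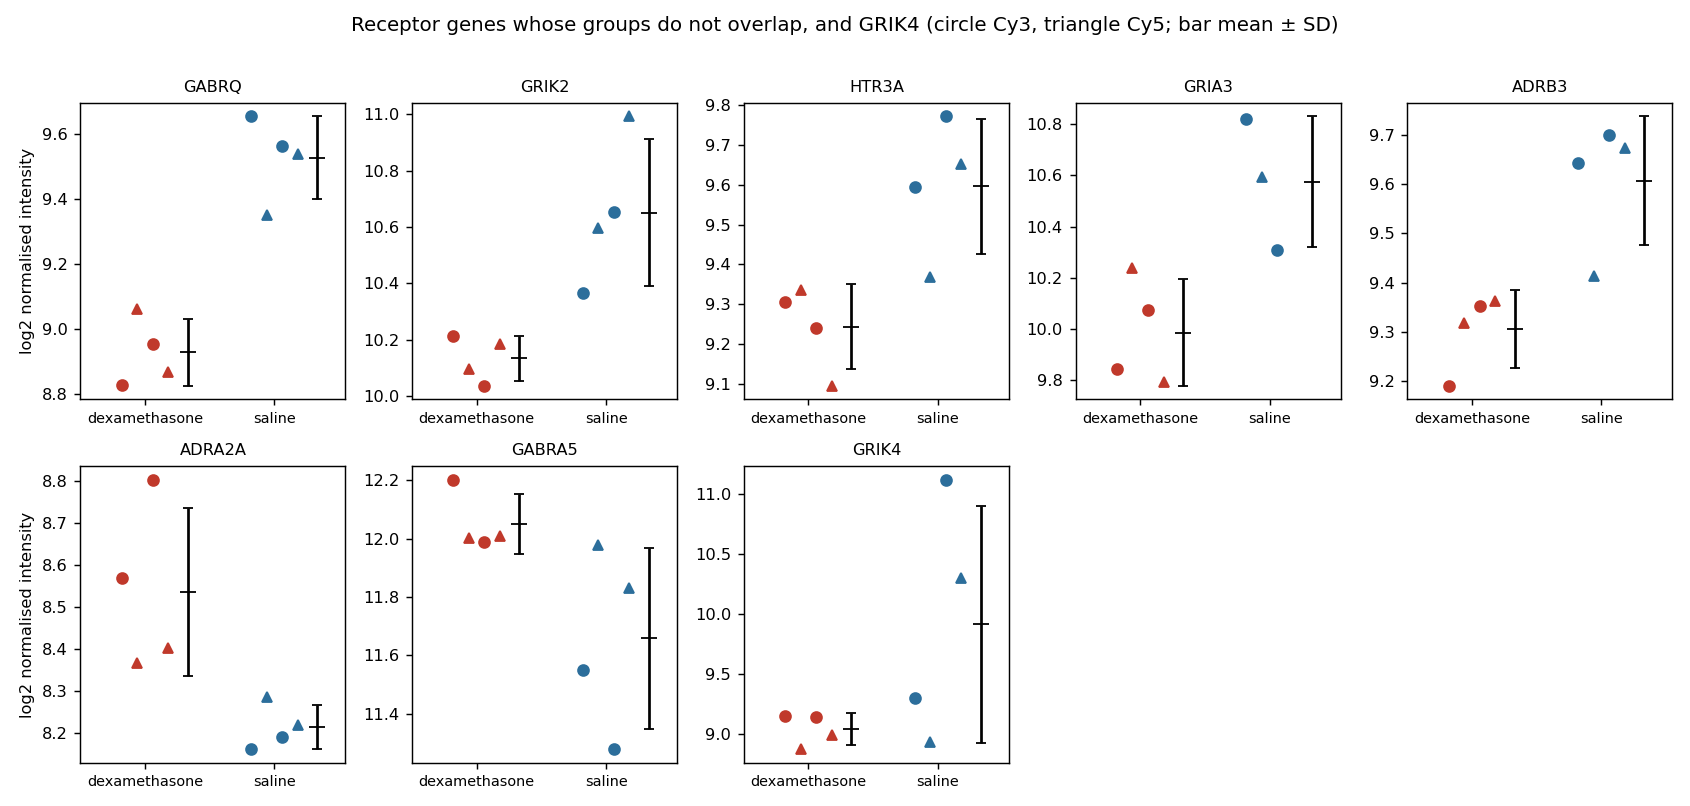
Log2 normalised intensity (y axis) of 7 of the 9 receptor genes whose groups do not overlap, ordered by p, and of GRIK4, in the 4 dexamethasone and 4 saline samples (x axis). Circles are Cy3 and triangles Cy5, and the bar is the mean ± SD. In GRIK4 the high saline values are saline 3 and saline 4, which shared an array.

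GABA A subunits ran in both directions, with 10 tested, 6 below 0 and 4 above, which became 5 and 5 with the processed signals, 75th percentile scaling or quantile normalisation and 2 and 8 with the deposited table, where 35.4% of all genes lay below 0. GABRQ, the theta subunit, had the smallest p of all receptors. It read 8.83, 9.06, 8.95 and 8.87 in dexamethasone 1 to 4, against 9.66, 9.35, 9.56 and 9.54 in saline 1 to 4. The lowest saline sample was above the highest dexamethasone sample, and the means were 8.93 ± 0.10 with dexamethasone and 9.53 ± 0.13 with saline (SD, n = 4 each). The difference was -0.60 (SE 0.12, adjusted p = 0.174 in limma, unadjusted p = 0.000884), which is 1.51-fold lower. It was -0.72 in Cy3 and -0.48 in Cy5, -1.12 with the processed signals and -0.53 with dexamethasone 1 left out. GABRQ has 1 probe, so no further probe could be set beside it.

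GABRA5, the alpha 5 subunit, which is prominent in the hippocampus, read 12.20, 12.00, 11.99 and 12.01 in dexamethasone 1 to 4, against 11.55, 11.98, 11.28 and 11.83 in saline 1 to 4. The groups did not overlap, but dexamethasone 3 and saline 2 almost touched. The difference was 0.39 (SE 0.17, adjusted p = 0.361 in limma), at 0.68 in Cy3 and 0.10 in Cy5. The other 2 tested probes, which overlap in sequence, differed by 0.28 and 0.33, and the mean of the kept probes by 0.26.

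GABRA2, a further alpha subunit, differed by 0.39 (SE 0.24), with overlap, by 0.15 with dexamethasone 1 left out and by 0.86 with the processed signals. GABRB2, a beta subunit, and GABRA6, best known from the cerebellum, differed by 0.05 and -0.02, and both changed sign under some of the alternatives. The G protein-coupled receptor subunit GABBR1 differed by 0.10 (SE 0.14). The array calls GABRA6 an alpha 4 subunit and GRIA4 an AMPA 2-like gene, and the names here follow RefSeq.

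**Figure D4:**
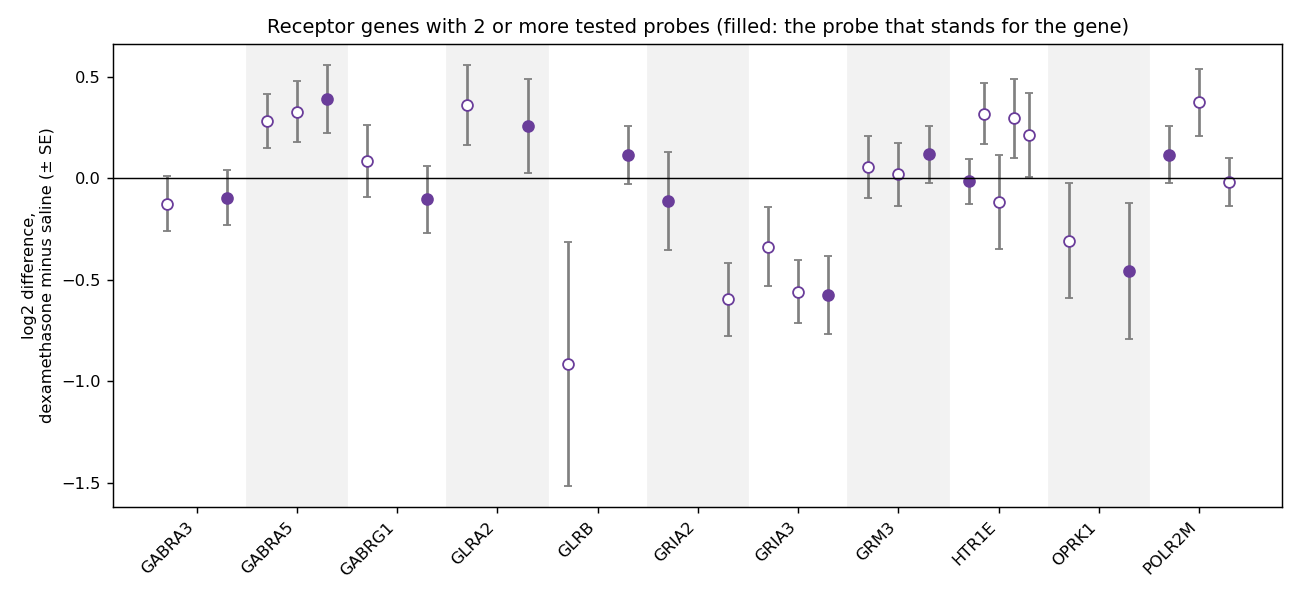
Log2 difference, dexamethasone minus saline, with SE (y axis) at each tested probe of 11 of the 15 receptor genes with 2 or more (x axis), ordered along the transcript within a gene. Filled points stand for the gene. All probes had the same sign in 7 of the 11 genes, GRIA3 and GABRA5 among them, and the 2 GLRB probes lie furthest apart, by 1.03.

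Glycine receptors, the inhibitory channels best known from the brainstem and spinal cord, had 3 of 5 genes tested. GLRA3 read 8.87, 8.93, 9.01 and 9.13 with dexamethasone, against 9.37, 9.22, 9.14 and 9.08 with saline. The groups overlapped at dexamethasone 4, and the difference was -0.22 (SE 0.11, adjusted p = 0.399 in limma), at -0.13 with saline 1 and 2 left out and -0.65 with 75th percentile scaling. GLRA2, the alpha subunit of the fetal receptor in rodents, differed by 0.26 (SE 0.23), by 0.02 with dexamethasone 1 left out and by 0.60 with the processed signals. Its probe was well above background in 3 of 4 dexamethasone and 2 of 4 saline samples, so the difference rests in part on values near background. GLRB differed by 0.11 (SE 0.14) at its brighter probe and by -0.92 (SE 0.60) at its other probe, where dexamethasone 3 read 6.72 and the other 7 samples 9.03 to 9.65. With the mean of its probes in place of the brighter one the GLRB difference was -0.40.

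Acetylcholine receptors had 4 of 8 genes tested, all above 0 here, where 45.7% of all genes lay below. With the processed signals and with 75th percentile scaling 2 of 4 lay above 0, where 48.5% and 52.0% of all genes lay below. The count was also 2 of 4 with saline 3, saline 3 and 4, or dexamethasone 1 and 2 left out. CHRNA3, a nicotinic subunit best known from autonomic ganglia, read 9.76, 9.39, 9.59 and 8.89 with dexamethasone, against 9.22, 9.17, 9.07 and 9.09 with saline. Dexamethasone 4 was below all saline samples, and the difference was 0.27 (SE 0.17, adjusted p = 0.475 in limma), at 0.10 with dexamethasone 1 and 2 left out and 0.48 with the deposited table. The nicotinic subunit CHRNA4 and the muscarinic receptors CHRM1 and CHRM2 differed by 0.02, 0.01 and 0.06, each less than its SE. The single CHRNA4 probe maps to chr2:42269134-42269193, close to a CHRNA2 probe at chr2:42270717-42270776 on the same strand. Which of these genes it reads was not tested.

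Of the serotonin receptors HTR3A, the subunit of the only serotonin-gated channel, which marks a class of cortical interneurons in rodents, read 9.31, 9.33, 9.24 and 9.10 in dexamethasone 1 to 4. In saline 1 to 4 it read 9.59, 9.37, 9.77 and 9.65. The groups did not overlap, with saline 2 just above dexamethasone 2. The difference was -0.35 (SE 0.11, adjusted p = 0.312 in limma), at -0.41 in Cy3 and -0.29 in Cy5. Its second probe was dim in all samples. HTR1D, an autoreceptor on serotonin and other terminals, differed by 0.08 (SE 0.13) and was well above background in 2 of 4 samples of each group.

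Among the receptors for amines, ADRB3, the beta 3 adrenergic receptor, read 9.19, 9.32, 9.35 and 9.36 with dexamethasone, against 9.64, 9.41, 9.70 and 9.67 with saline. The groups did not overlap, and the difference was -0.30 (SE 0.11, adjusted p = 0.344 in limma). ADRA2A, the alpha 2A receptor that restrains noradrenaline release, read 8.57, 8.37, 8.80 and 8.40 with dexamethasone, against 8.16, 8.29, 8.19 and 8.22 with saline. The groups did not overlap, and the difference was 0.32 (SE 0.13, adjusted p = 0.355 in limma). Its probe was well above background in 4 of 4 dexamethasone samples and in 2 of 4 saline samples. The difference, its SE and the lack of overlap thus rest on saline values near background. The ADRA2A difference was 1.19 with the processed signals and 0.23 with dexamethasone 3 left out. DRD5, the single dopamine receptor among the members, differed by -0.16 (SE 0.10). The DRD5 difference was -0.53 with 75th percentile scaling and -0.11 with dexamethasone 1 left out.

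ADORA2A, the adenosine receptor that is dense in the striatum, read 12.95, 13.21, 13.36 and 13.16 with dexamethasone, against 12.94, 13.14, 13.62 and 13.55 with saline. These values overlapped, and the difference was -0.14 (SE 0.18), at -0.41 with saline 1 and 2 left out and 0.13 with saline 3 and 4 left out. OPRK1, the kappa opioid receptor, read 9.99, 8.99, 10.75 and 9.79 with dexamethasone, against 10.27, 10.52, 10.17 and 10.38 with saline. The dexamethasone samples spanned the saline samples on both sides, with an SD of 0.72 with dexamethasone against 0.15 with saline, and the difference was -0.46 (SE 0.34). It was -0.06 with dexamethasone 1 and 2 left out and -0.85 with dexamethasone 3 and 4 left out. P2RX3, an ATP-gated channel of sensory neurons, differed by -0.25 (SE 0.11, adjusted p = 0.362 in limma). The P2RX3 difference was -0.67 with the processed signals and -0.18 with dexamethasone 1 left out. The other purinergic entry that was tested is GPR174 in RefSeq, a receptor of lymphocytes, and it differed by -0.21 (SE 0.22).

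Probes that were well above background in both samples of a single array and in no other sample numbered 8 among the receptors, with 1 and 0 on the dexamethasone arrays and 3 and 4 on the saline arrays. Over all probes the dexamethasone arrays had 164 and 85 and the saline arrays 249 and 290. The probe pair of HTR5BP, a serotonin receptor pseudogene, is shown because the probes differ by a shift of 1 base while their values in saline 1 and 2 did not match. Capitals mark the base that the other probe lacks, and both lie on the minus strand, at chr7:64985870-64985929 and chr7:64985871-64985930.
HTR5BP bright on 1 array: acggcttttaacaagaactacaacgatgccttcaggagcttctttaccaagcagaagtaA
HTR5BP at background: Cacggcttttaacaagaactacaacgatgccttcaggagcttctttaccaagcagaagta

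The first HTR5BP probe read 7.63, 7.93, 7.61 and 7.94 in dexamethasone 1 to 4, against 11.46, 10.29, 7.80 and 7.81 in saline 1 to 4. Its sister read 8.01, 7.81, 7.87 and 7.95 with dexamethasone, against 7.77, 7.85, 7.72 and 7.72 with saline. The high values were thus in both samples of the first saline array and at 1 probe of the 5 for this gene. HTR1B, a serotonin receptor of axon terminals, had 1 bright probe of 5 as well, at 9.35 and 8.96 in saline 3 and 4. HTR2C and ADORA3 read 9.46 and 9.34 in saline 3. None of these genes passed the filter on dim probes, so none entered the counts above.

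**Figure D5:**
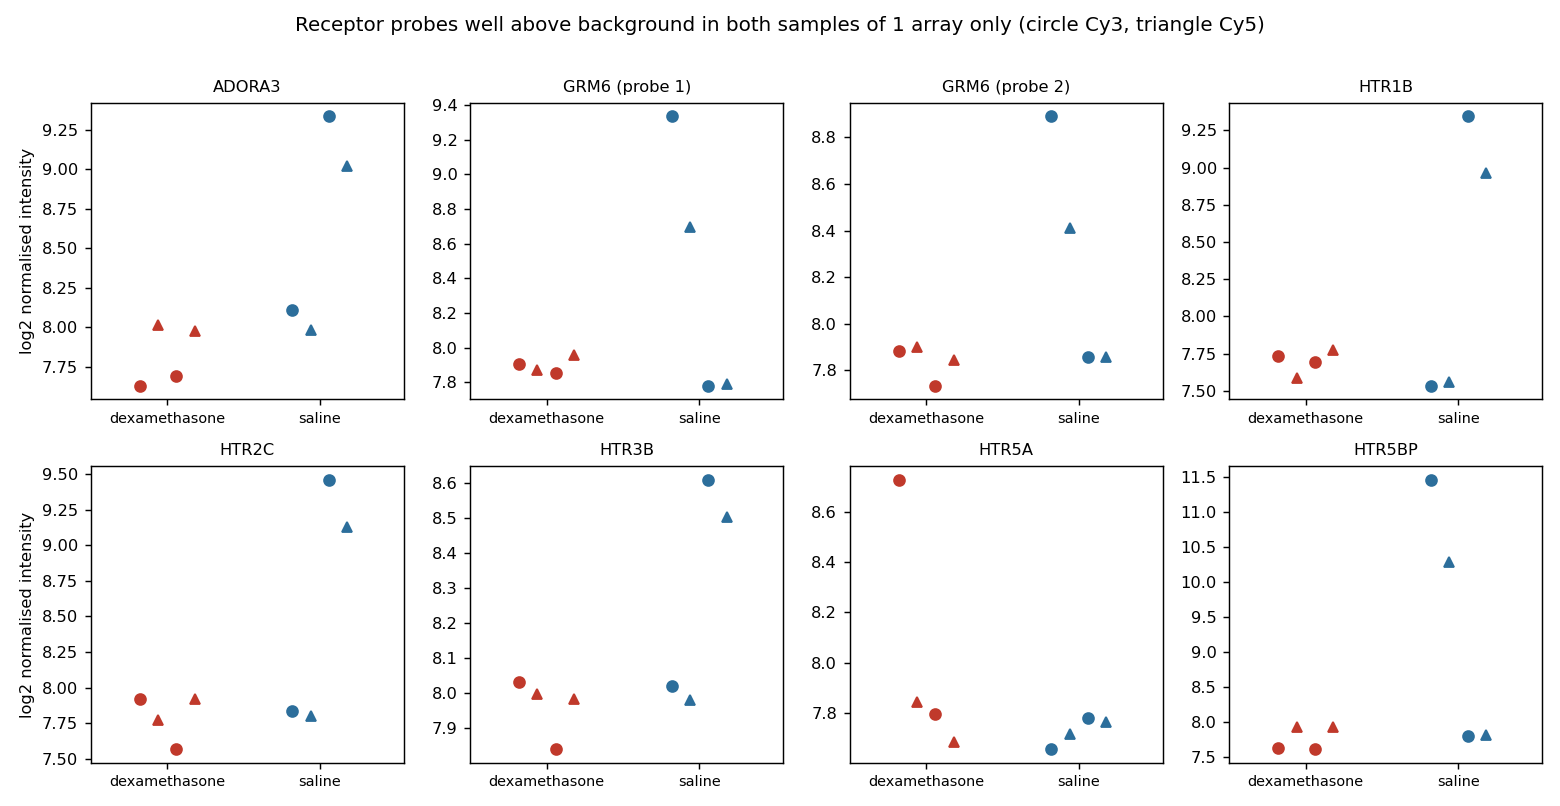
Log2 normalised intensity (y axis) of the 8 receptor probes well above background in both samples of 1 array only, in the dexamethasone and saline samples (x axis), with circles for Cy3 and triangles for Cy5. In 7 of the 8 the array is a saline array, and at HTR5BP saline 1 and saline 2 stand at 11.46 and 10.29 while the other 6 samples lie under 8.

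The genes around the receptors were described from lists of transmitter enzymes with peptide precursors, transporters, receptor scaffolds and G protein signalling. Of 14 tested genes of the first list 0 passed an unadjusted p under 0.05 and 9 lay above 0, with a median of 0.08. These include the opioid peptide precursors POMC and PENK, which are not enzymes, at 0.15 (SE 0.12) and -0.88 (SE 0.73). MAOB, which breaks down amines, and ADA, which breaks down adenosine, differed by 0.15 and 0.13, and with the processed signals by 1.01 and 0.27. With dexamethasone 3 and 4 left out MAOB was at 0.07, and with dexamethasone 3 left out ADA was at 0.08. MAOB was well above background in 3 of 4 dexamethasone and 2 of 4 saline samples, and ADA in 4 and 2. Both differences thus rest in part on values near background. Of 8 transporters 0 passed, 5 lay above 0 and the median was 0.08, with SLC1A2, the glutamate uptake carrier of astrocytes, at 0.35 (SE 0.15) and SLC6A13, a GABA carrier of the meninges, at 0.52 (SE 0.26). The SLC6A13 probe was well above background in 4 of 4 dexamethasone and 2 of 4 saline samples. Of 17 scaffold genes 0 passed, 12 lay above 0 and the median was 0.05, with NSF, which handles AMPA receptor traffic, at 0.35 (SE 0.18) and DLGAP1, of the postsynaptic density, at 0.21 (SE 0.12). Over the alternatives SLC1A2 ran from 0.13 (saline 3 and 4 left out) to 0.67, SLC6A13 from 0.31 (dexamethasone 3 left out) to 1.15, NSF from 0.14 (saline 3 and 4 left out) to 0.91 and DLGAP1 from 0.09 (dexamethasone 1 and 2 left out) to 0.41. Over all genes 13.7% passed that unadjusted threshold.

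Of 18 tested genes of G protein signalling 2 passed the unadjusted threshold, 11.1%, where 13.7% of all genes did. Of the 18, 7 lay above 0 and 11 below, with a median of -0.01, and 1 had groups without overlap, 5.56%, where 13.4% of all genes did. GNAZ, an inhibitory G protein alpha subunit of neurons, read 9.89, 9.69, 9.69 and 9.52 with dexamethasone, against 9.22, 9.37, 9.31 and 9.30 with saline, without overlap. The difference was 0.40 (SE 0.11, adjusted p = 0.295 in limma). ADCY5, the adenylyl cyclase of the striatum, differed by -0.26 (SE 0.11, adjusted p = 0.361 in limma). GNAZ was at 0.68 with the deposited table and at 0.30 with dexamethasone 1 and 2 left out. ADCY5 was at -0.57 with 75th percentile scaling and at -0.17 with the mean of kept probes.

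Markers of neurons in general had 8 of 16 genes tested, 6 of them above 0 and 2 below, with a median of 0.18. The 1 neuron marker that passed an unadjusted p under 0.05, SYT1, a calcium sensor of synaptic vesicles, was lower with dexamethasone, at -0.32 (SE 0.13, adjusted p = 0.361 in limma), with groups that did not overlap. On either measure 1 gene is 12.5% of the tested neuron markers, where 13.7% of all genes passed and 13.4% had groups without overlap. The mean log2 level of the neuron markers was 13.61 to 14.27 in dexamethasone samples and 13.58 to 13.90 in saline samples, and RBFOX3 and SNAP25 were not tested. Each mean was taken over the markers with a value in that sample. NEFL had no value in saline 1 and UCHL1 none in saline 3, so the saline means do not all cover the same genes. GABAergic markers had 6 of 14 tested, 4 above 0, with a median of 0.13, and glutamatergic markers had 5 of 10 tested, 3 above 0, with a median of 0.02, and 0 of either passed that threshold. No gene of these lists was called, and their part in the receptor differences was not tested.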

How the data were processed

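Spot intensity (mean and local background per dye) came from the authors' deposited scanner files, made with Agilent Feature Extraction, version 11.0.1.1 per the file headers and 10.7.3.1 per the submitters' processing notes. The 2 samples of an array share 1 file, and each was read from its own dye, as per the labels. The deposited series table gives a signal, which equalled the background-subtracted median of the sample's channel divided by a constant, within 0.1% for 100% of values, with each column's median at 1. This fixes its scale and direction, with no further centring seen.

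In R 4.3.3 with limma 3.58.1, intensities were corrected with normexp (offset 50), normalised by loess and Aquantile and split into channels. Outlier spots (197 to 3022 per sample) were left out, and 0 spots were saturated. Kept probes were well above background in 4 or more of the 8 samples and had 3 or more values per group, and the brightest stood for a gene. The minimum of 3 values was chosen after a first fit without it had left GRIK2 and GRM3 untested. The fit (lmFit, eBayes) took dye as a fixed term and the array as a random one (correlation 0.24), with Benjamini-Hochberg adjustment over 11250 genes. It was run on simulated data with changes larger than any receptor difference here, which cannot show how often changes of the receptors' size would be called. Of the 175 receptor probes, 165 took a symbol from a RefSeq table of mOryCun1.1, and 3 GRIP1 probes were left out. By RefSeq, 6 members are not transmitter receptors (GRINA, POLR2M, GRK3, OXGR1, GPR174, HTR5BP). The members, lists and the rule for named genes (smallest p overall and per family, plus fixed names) were chosen with earlier results of these data known. GABBR2, GRM2, GRM3, GRM4, CHRNA4, GABRA6, GABRB2, SYT1, the genes that were not tested and the probes bright on 1 array were named after their values were seen. Some members are not reported here by name, though counts and medians include them. Alternatives covered background correction, normalisation, filters, probe rule, model terms, the deposited table and each sample or array left out.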

Additional observations from a re-analysis of the deposited data

Results flagged for a closer look

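In 4 of 64 groups of 4 values, 1 sample stood apart from the other 3 by Dixon's criterion, and chance gives about 1 in 20. CHRM1 read 9.42 in dexamethasone 2, with the nearest dexamethasone sample at 9.33. CHRNA4 read 9.98 in saline 1, with the nearest saline sample at 9.76. CHRM2 read 9.01 in dexamethasone 3, with the nearest at 8.80. GABRA5 read 12.20 in dexamethasone 1, with the nearest at 12.01.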

How the results depend on the processing

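Of the 33 tested receptors followed through the 23 alternatives, 17 kept their sign and 16 changed it under at least 1. All 16 had a difference smaller than its SE, and 0 were called where they changed sign. The log2 differences that changed sign were, with the processed signals, 0.0229 for ADORA2A, -0.107 for CHRM2, -0.0438 for CHRNA4, 0.101 for GRIA2 and -0.0157 for GRM2. With quantile normalisation it was 0.0374 for GRIA1. With 75th percentile scaling they were -0.188 for CHRM2, -0.0451 for CHRNA4, 0.107 for GRIA2 and -0.0284 for HTR1D, and with the mean of probes GLRB was at -0.40. With the deposited table they were 0.00188 for ADORA2A, 0.0643 for GABRA3, 0.172 for GABRA6, 0.00406 for GABRG1, 0.0487 for GRIA1 and 0.0504 for GRIA2. With saline 1 and 2 left out they were 0.173 for GABRA6, -0.0749 for GABRB2 and -0.0382 for GLRB. With saline 3 and 4 left out they were 0.125 for ADORA2A, -0.0979 for CHRM1, -0.0499 for CHRNA4, 0.0123 for GRIA1 and -0.0312 for HTR1D. With dexamethasone 1 and 2 left out they were -0.0167 for CHRM1, -0.0574 for CHRNA4, 0.0695 for GABRA6 and -0.0227 for GRM2. With dexamethasone 3 and 4 left out they were 0.0402 for GABRA3 and 0.0400 for GRIA1. Single samples left out gave -0.0368 to 0.0681 for CHRM1, -0.0586 to 0.0974 for CHRNA4, -0.00253 to 0.181 for GABBR1, -0.108 to 0.0996 for GABRA6, -0.0415 to 0.112 for GABRB2, -0.238 to 0.0366 for GABRG1, -0.00239 to 0.205 for GLRB, -0.404 to 0.000183 for GPR174, -0.124 to 0.0914 for GRIA1, -0.238 to 0.114 for GRIA2 and -0.0645 to 0.29 for GRM4. The cause was not tested.

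The number of genes called was 14 with the processed signals, 15 with 75th percentile scaling, 3 over probes above background in all samples, 2 without the filter, 11 with the mean of probes, 23 without the array block and 18 without the dye term. Single samples left out gave 0 to 14, with 0 for each dexamethasone sample. With saline 1 and 2 left out 2235 genes were called, 20.6% of those tested, and 10 receptors, 25% of those tested (with GRIK4, GABRQ, GRIK2, HTR3A, ADRB3, GRIA3, GABRA5, P2RX3 and ADORA2A among them, adjusted p from 0.00206 to 0.0484). With saline 3 and 4 left out 209 genes were called, 1.82% of those tested, and 1 receptor of 39 (GABRQ, adjusted p = 0.0498), with dexamethasone 1 and 2 left out 0, and with dexamethasone 3 and 4 left out 1. The fits without a saline array had a within-array correlation of -0.31 and -0.38. A negative value narrows the SE of a contrast between arrays, and saline was then 1 array. The calls and adjusted p of these fits thus cannot be set against those from all samples. GABRQ's adjusted p ran from 0.00977 to 0.787 over the alternatives.

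The receptor median was -0.0616 with the processed signals, 0.00707 with quantile normalisation, -0.109 with 75th percentile scaling, -0.0599 over probes above background in all samples, 0.0693 with the deposited table, which put the median of all genes at 0.14, -0.0473 with members taken by gene symbol, and -0.02 without the 6 other genes. It was -0.0586 to -0.00152 with single samples left out, and -0.0534 and -0.0499 without the first and the second saline array. Same-numbered samples did not vary together (correlations -0.11, -0.13, -0.01 and 0.10), and the numbers pair no samples. The replicate number as a block gave 5 called genes, no receptor and a receptor median of -0.02.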

Other observations

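At 71 receptor probes that were well above background in no sample, the SD across probes of the Cy5 minus the Cy3 value was 0.22 and 0.20 on the dexamethasone arrays, against 0.06 and 0.01 on the saline arrays. Near background the 2 samples of a saline array were thus almost identical in normalised value.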
